A study of Mus musculus with 6 samples.

Results

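iNKT1 cells of mouse liver in which no granzyme A or B transcript was detected were chosen by their own measured values. A cell barcode of the 2 liver libraries was a member when it held 300 to 4000 genes, at most 15% of its unique molecular identifiers (UMIs) from mitochondrial genes, at least 1 UMI of at least 3 of the 8 marker genes Tbx21, Il2rb, Klrb1c, Klrd1, Klrk1, Klrc1, Cd160 and Xcl1, and no UMI of Gzma, Gzmb, Ccr6, Il23r and Top2a. The rule kept 2777 of 5662 filtered liver cells, 1429 of liver replicate 1 and 1348 of liver replicate 2. The whole series held 16532 filtered cells of 16587 barcodes, and 55 barcodes were left out by the filter.

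The study asked how invariant natural killer T (iNKT) cells differ between peripheral organs, and profiled liver, spleen and lymph node by droplet-based single-cell RNA sequencing with 2 libraries per organ. All mice were wild-type C57BL/6 of 5 weeks, with no treatment named, and all cells were sorted for TCR-β and CD1d tetramer binding after removal of cells positive for CD8 or B220. The labels do not say how many mice gave a library, so a p-value here measures only the spread between libraries. The molecule is labelled as nuclear RNA.

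iNKT cells are T cells with a nearly invariant T cell receptor that recognises lipids presented by CD1d. The iNKT1 subset depends on the transcription factor T-bet, encoded by Tbx21, responds to IL-15 through IL-2 receptor β (Il2rb), carries many receptors first described on natural killer (NK) cells, and is the main iNKT subset of mouse liver. Granzymes A and B are the serine proteases of cytotoxic granules, Ccr6 and Il23r mark iNKT17 cells, and Top2a marks dividing cells.

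Over all barcodes, before the filter, liver replicate 1 held 11086603 UMIs and liver replicate 2 held 9041008, and the other 4 libraries held 4768016 to 5433779. The median filtered cell held 3592 and 2880 UMIs in liver and 1470 to 1730.5 in spleen and lymph node. Between 6 and 20 barcodes were shared by any 2 libraries. Among cells that met the rule, Xist stood at 1357 and 1349 UMIs per 1000000 in liver and at 0 in both lymph node libraries, whereas the Y-linked gene Ddx3y stood at 0 in liver and at 166 and 191 in lymph node. Sex and organ therefore cannot be told apart in any comparison with lymph node. The spleen libraries held Xist and no Y-linked RNA, like those of liver. The members of the 2 liver libraries differed by more than counting noise, with a chi-square per degree of freedom of 4.10 over 9458 genes. This value grows with depth and was not compared between organs.

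Levels are given as UMIs per 1000000 (CPM), summed over the cells of a class in a library, with the 13 genes of the rule and 107 ribosomal and haemoglobin genes left out of the total. Among the marker genes, the members held Il2rb at 836 CPM in liver replicate 1 and 892 CPM in replicate 2. Klrk1, which encodes the activating receptor NKG2D, stood at 595 and 631 CPM, and Klrb1c, which encodes NK1.1, at 475 and 528 CPM. Tbx21 was the lowest of the 8, at 142 and 170 CPM. These values follow from the rule and were not tested.

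The members were checked for RNA of other cell types by marker lists. These lists do not tell iNKT1 from iNKT2 or iNKT17 cells, so the subset label rests on the rule. The T cell list (Cd3e, Cd3d, Cd3g, Cd247, Lck and Zbtb16) summed to 5577 and 6073 CPM in the members. Lists of B cell, myeloid and hepatocyte markers summed to 0.356 to 8.90 CPM in the members, and the hepatocyte marker Alb was at 0.276 and 0 CPM. Eomes, a marker of conventional NK cells, had no UMI in the members of either library, and Ncr1 stood at 0.552 and 3.91 CPM. The platelet and erythroid list, of which Hba-a1 and Hbb-bs gave all but 2 UMIs, summed to 38.6 CPM in replicate 1 and 407 CPM in replicate 2.

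The threshold of 3 markers cut through a continuous distribution. Of the cells that lacked all 5 excluded genes, 460 in replicate 1 and 410 in replicate 2 held exactly 3 markers, just inside the rule, and 363 and 408 held exactly 2, just outside it. The median cell just inside held 3576 and 2860 UMIs, and the median cell just outside held 3235 and 2628.5 UMIs. Only 15 and 9 members held all 8 markers.

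**Figure D1:**
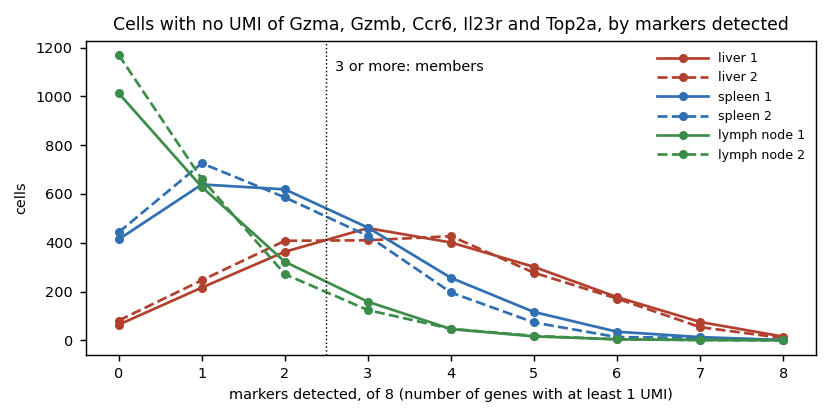
Number of cells (y axis) with no UMI of Gzma, Gzmb, Ccr6, Il23r and Top2a, by the number of the 8 markers detected (x axis), for each library. In both liver libraries the curve runs through the threshold without a gap, with 363 and 408 cells at 2 markers and 460 and 410 at 3.

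Granzyme levels were also read in UMIs that the rule had not used. When the UMIs of each cell were split at random into 2 sets, the rule applied to the first and the counts read from the second, cells that met the rule held Gzmb at 89.2 CPM in liver replicate 1 and 123 CPM in replicate 2, and 9.33% and 10.5% of them held a Gzmb UMI in the second set. Cells classed as Gzmb-positive in the first set held 793 and 1105 CPM, and cells without the 5 genes and with under 3 markers held 47.8 and 72.4 CPM, with a UMI in 4.35% and 5.36% of cells. Gzma stood at 17.7 and 16.1 CPM in the cells that met the rule. For Gzmb the cells that met the rule thus lay between the other 2 classes, nearer to the lower one. The part of free RNA in these levels was not tested.

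The members made up 51.0% of liver replicate 1 (95% exact binomial interval 49.2% to 52.9%) and 47.1% of replicate 2 (45.3% to 49.0%). The intervals cover counting error only. In spleen the same rule kept 32.4% of replicate 1 and 27.1% of replicate 2. In lymph node it kept 8.53% of replicate 1 and 6.81% of replicate 2. With every cell thinned to 1000 UMIs and shallower cells left out (0 and 9 of the liver libraries, 144 and 169 of those of spleen, 265 and 488 of those of lymph node), the share fell to 19.3% and 21.9% for the liver libraries. At that depth it was 17.8% and 16.1% for spleen, and 4.85% and 4.32% for lymph node. The distance between liver and spleen was therefore smaller at equal depth, while lymph node stayed below both. The rule chose these cells, and the shares were not tested.

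**Figure D2:**
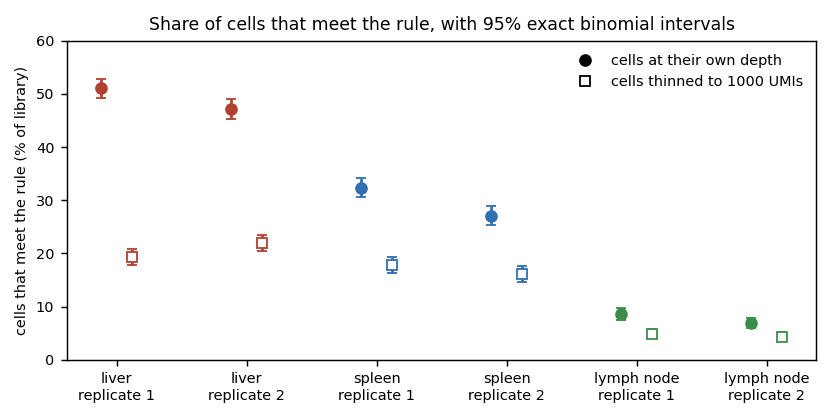
Share of filtered cells of each library that met the rule (y axis, percent), at the depth of the data (circles) and with each cell thinned to 1000 UMIs (squares), with 95% exact binomial intervals. The liver shares of 51.0% and 47.1% drop to 19.3% and 21.9% on thinning, next to 17.8% and 16.1% in spleen.

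The remaining 2885 liver cells were of 4 kinds. Cells that met the marker rule without Ccr6, Il23r or Top2a but held Gzma, called Gzma-positive, numbered 186, and those that held Gzmb without Gzma, called Gzmb-positive, numbered 734. Cells without the 5 excluded genes and with under 3 markers numbered 1378. The last 587 cells, called the mixed class, held Ccr6, Il23r or Top2a, or held a granzyme with under 3 markers. The median member held 3722 UMIs in replicate 1 and 2914 in replicate 2, against 3618 and 2967 in Gzmb-positive cells and 3531 and 2945 in Gzma-positive cells.

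The members were compared with the Gzmb-positive and Gzma-positive cells of the same libraries, which passed the same marker threshold. UMIs were summed per library and class and tested with edgeR's quasi-likelihood test, with library as a block, and a gene counted as called where its p, adjusted by Benjamini-Hochberg over all genes tested, was under 0.05. Against Gzmb-positive cells, 7 of 9085 genes were higher (0.0771%) and 28 were lower (0.308%) in the members. Against Gzma-positive cells, 14 genes were higher (0.154%) and 52 were lower (0.572%), or 25 and 49 with ribosomal and haemoglobin genes kept. The majority of lower genes did not hold under each alternative. With no filter on low counts 26 genes were higher and 23 lower against Gzmb-positive cells, and 47 and 36 against Gzma-positive cells, and with thinned cells the latter were 21 and 14. Without liver replicate 1 the counts of called genes were 17 and 31 in place of 35 and 66, and without liver replicate 2 the second was 30. The members held less RNA of 6 and 7 of 16 tested NK receptor genes and of 2 of 6 tested adaptor genes, and more Il4.

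Il4 encodes the cytokine IL-4, the hallmark product of iNKT2 cells that iNKT cells can make as RNA without recent stimulation. It lies on mm10 chromosome 11 from 53602982 to 53618669, minus strand. The members held 156 CPM in replicate 1 and 186 CPM in replicate 2, the Gzmb-positive cells 90.3 and 121 CPM, and the Gzma-positive cells 59.6 and 89.3 CPM. In each library the members stood highest and the Gzma-positive cells lowest of these 3 classes. The log2 difference was 0.69 (SE 0.11, adjusted p 1.31e-06) against Gzmb-positive and 1.22 (SE 0.23, adjusted p 4.64e-05) against Gzma-positive cells. The cells with under 3 markers held 151 and 175 CPM, which was not compared by a test of its own. Without liver replicate 1 the difference from Gzma-positive cells was 1.08 with an adjusted p of 0.178. The difference from Gzmb-positive cells was not called with the rule read from one random set of UMIs and the sums from the other (0.44, adjusted p 0.999), with thinned cells (0.76, adjusted p 0.92), among cells of 2000 to 4000 UMIs (0.53, adjusted p 0.0681) or without the library block (0.68, adjusted p 0.0704).

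Of the 25 NK receptor genes outside the rule, 16 could be tested against Gzmb-positive cells, of which 0 were higher and 6 lower (Klra5, Klra6, Klra7, Klrc2, Klre1 and Ncr1). Their median log2 difference was -0.86, beside -0.00023 over all genes tested. Klre1, which encodes a lectin-like receptor of NK cells, stood at 133 and 168 CPM in the members and at 337 and 332 CPM in the Gzmb-positive cells. It fell by 1.17 on the log2 scale (SE 0.085, adjusted p 3.13e-39). Klrc2, which encodes NKG2C, stood at 161 CPM in the members of both libraries and at 326 and 262 CPM in the Gzmb-positive cells (log2 difference -0.88, SE 0.087, adjusted p 3.37e-21). Klra5, a member of the Ly49 family (chromosome 6, 129898996 to 129917650), stood at 7.72 and 10.3 CPM against 44.0 and 64.7 CPM, a log2 difference of -2.58 (SE 0.28, adjusted p 1.11e-17). The 2 libraries of each class did not overlap for any of these 3 genes.

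Against Gzma-positive cells, 7 of the 16 receptor genes were lower and 0 higher (median -1.30, beside 0.021 over all genes). Ncr1, which encodes the activating receptor NKp46, showed the largest log2 difference of the 16 receptor genes, at 0.552 and 3.91 CPM in the members against 37.3 and 57.8 CPM (log2 difference -4.48, SE 0.62, adjusted p 4.13e-10). Its level in the members rests on 2 and 11 UMIs. Klra7 had a log2 difference of -3.07 (SE 0.28, adjusted p 2.54e-25). Klre1 stood at 298 and 599 CPM in the Gzma-positive cells (log2 difference -1.53, SE 0.13, adjusted p 1.45e-26). Without liver replicate 1 the call for Ncr1 against Gzmb-positive cells was lost, at a log2 difference of -2.60 and an adjusted p of 0.0649. Without liver replicate 2 the call for Klrc2 against Gzma-positive cells was lost, at -0.59 and 0.552.

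Of the 6 testable genes for NK receptor adaptors, Fcer1g and Tyrobp were lower in the members in both comparisons, while the other 4 were not called and the median was -0.032 against Gzmb-positive and -0.083 against Gzma-positive cells. Both encode short transmembrane proteins that carry an activating signal for receptors without one of their own. Fcer1g stood at 42.5 and 58.4 CPM in the members, at 183 and 185 CPM in Gzmb-positive cells and at 268 and 604 CPM in Gzma-positive cells. Tyrobp stood at 18.8 and 29.2 CPM, 80.2 and 78.6 CPM, and 194 and 252 CPM in the same order. Of these 3 classes the members held the least of both RNAs in each library. The log2 difference of Fcer1g was -1.88 (SE 0.13, adjusted p 2.90e-39) against Gzmb-positive and -3.06 (SE 0.17, adjusted p 3.24e-63) against Gzma-positive cells, and that of Tyrobp was -1.75 (SE 0.19, adjusted p 4.10e-17) and -3.24 (SE 0.23, adjusted p 4.82e-42). In the fit without library as a block, Fcer1g was not called against Gzmb-positive cells although its log2 difference was -1.89 (adjusted p 0.624), and Tyrobp was not called against them with thinned cells (-1.36, adjusted p 0.569) or with separate sets of UMIs for rule and sums (-1.04, adjusted p 0.306).

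Of 18 tested cytotoxic genes outside the rule, 2 were lower in the members than in Gzmb-positive cells and 0 higher, beside 0.308% of all genes lower. They were Gzmc, another granzyme, and Nkg7, a granule membrane protein. Gzmc stood at 7.17 and 12.8 CPM against 45.2 and 38.1 CPM (log2 difference -2.11, SE 0.29, adjusted p 7.82e-10), but was not called without liver replicate 1 (-1.57, adjusted p 0.177). Nkg7 was abundant in both classes, at 2378 and 2738 CPM against 2919 and 3202 CPM (log2 difference -0.27, SE 0.034, adjusted p 1.45e-12). The median of the 18 genes was -0.15. Against Gzma-positive cells 1 of the 18, Nkg7, was lower and 0 higher (median -0.18). Against all remaining cells 4 were higher (Ctsd, Fasl, Nkg7 and Serpinb6b) and 2 lower (Cst7 and Gzmc, median 0.032), with Nkg7 at 2142 and 2366 CPM in the remaining cells (log2 difference 0.20, SE 0.027, adjusted p 2.15e-11), and without the mixed class Gzmc was lower and 0 were higher. Perforin (Prf1) was scarce, at 4.41 and 2.85 CPM in the members.

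Cd7, which encodes a surface glycoprotein of T and NK cells, was lowest in the members of the 3 classes in both libraries. It stood at 140 and 158 CPM in the members, 471 and 322 CPM in Gzmb-positive cells and 641 and 741 CPM in Gzma-positive cells. The log2 difference from Gzmb-positive cells was -1.44 (SE 0.082, adjusted p 6.23e-55), and the call held under all 17 alternatives.

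Of 14 tested cytokine and chemokine genes, Il4 was higher and Ccl4 lower in the members than in Gzmb-positive cells (median -0.10), and Il4 was higher and Ccl5 and Ifng lower than in Gzma-positive cells (median 0.11). Against all remaining cells 16 could be tested, of which 5 were higher (Ccl5, Csf2, Il4, Ltb and Tnfsf14) and 0 lower (median 0.024), and without the mixed class Il4 alone of the 16 was called. Ccl5 stood at 4843 and 3606 CPM in the remaining cells (log2 difference 0.14, SE 0.025, adjusted p 4.80e-07). Ccl5 stood at 4886 and 4287 CPM in the members and at 9212 and 8508 CPM in Gzma-positive cells, a log2 difference of -0.94 (SE 0.078, adjusted p 5.44e-05), but was not called in the fit of the liver libraries only (-0.94, adjusted p 0.151), with thinned cells (-1.18, adjusted p 0.22) or without spleen replicate 1 (-0.95, adjusted p 0.0627). Ifng, which encodes interferon gamma, stood at 105 and 166 CPM against 149 and 331 CPM, a log2 difference of -0.78 (SE 0.17, adjusted p 0.000982). The Ifng values of the 2 classes overlapped, and the call was lost without liver replicate 2 (-0.51, adjusted p 0.996). The difference in Ifng turned positive, at 0.47, when rule and sums were read from separate sets of UMIs.

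Of 12 tested iNKT2 genes, Il4, Icos and Slamf6 were higher in the members than in Gzmb-positive cells and 0 lower (median 0.13). Against Gzma-positive cells Il4 and Plac8 of these 12 were higher and 0 lower (median 0.26). Against all remaining cells 14 could be tested, of which Il4 was higher and Il6ra lower (median -0.345), and without the mixed class Il4 was higher and Gata3 and Il6ra lower (median -0.369). Of 24 tested lineage and maturation regulators, Lmo4 and Ikzf2 were higher than in Gzmb-positive cells and 0 lower (median 0.079), whereas 0 were called against Gzma-positive cells (median -0.013), and of 11 tested genes of immature and recently emigrated cells 0 were called against Gzmb-positive cells (median 0.13), while 2 were lower (Klf2 and S1pr1) and 0 higher against Gzma-positive cells (median 0.06). Icos, a costimulatory receptor, stood at 300 and 290 CPM against 221 and 207 CPM (log2 difference 0.45, SE 0.084, adjusted p 4.80e-05). Lmo4, a LIM-domain regulator, stood at 156 and 167 CPM against 110 and 101 CPM (log2 difference 0.60, SE 0.12, adjusted p 8.73e-05). Ikzf2, which encodes Helios, had a log2 difference of 0.49 (adjusted p 0.0108), and Slamf6, a homotypic receptor needed in iNKT development, one of 0.61 (adjusted p 0.0105). Leaving out liver replicate 2 ended the calls of Icos (0.42, adjusted p 0.0968), Lmo4 (0.49, adjusted p 0.324), Ikzf2 (0.37, adjusted p 0.912) and Slamf6 (0.67, adjusted p 0.252), and leaving out replicate 1 ended those of Ikzf2 (0.65, adjusted p 0.137) and Slamf6 (0.56, adjusted p 0.928).

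Of 19 interferon response genes tested, Ifi27l2a was the only 1 higher against Gzmb-positive cells, at 1898 and 2064 CPM against 1584 and 1695 CPM (log2 difference 0.26, SE 0.039, adjusted p 6.32e-09), while the median of the list was -0.090. Its call was lost with thinned cells (0.14, adjusted p 0.974) and without the library block (0.26, adjusted p 1.0). Against Gzma-positive cells Ly6a was higher and Ifit3 and Isg15 lower (median -0.328). Against all remaining cells 0 were higher and Ifit3 lower (median -0.080), and without the mixed class Ifi27l2a was higher and Ifit1, Ifit3 and Isg15 lower (median -0.13). Iigp1, an interferon-induced GTPase, had a log2 difference of 1.13 (SE 0.23, adjusted p 0.000268) that was not called without liver replicate 1 (0.89, adjusted p 0.702) and turned to -0.49 in thinned cells.

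Of 23 tested genes of homing, egress and residency, 2 were higher in the members than in Gzma-positive cells (Cxcr6 and P2rx7) and 4 lower (Klf2, Ly6c2, Rgs1 and S1pr1), with a median of -0.093. Against Gzmb-positive cells 0 of the 23 were higher and 2 lower (Ly6c2 and Rgs1, median -0.028). Cxcr6, the receptor that holds iNKT cells in liver sinusoids, stood at 1368 and 1801 CPM against 1047 and 1402 CPM (log2 difference 0.37, SE 0.068, adjusted p 2.10e-05). Klf2, a regulator of egress from tissue, stood at 120 and 126 CPM against 302 and 263 CPM (log2 difference -1.21, SE 0.16, adjusted p 1.24e-10). The 2 classes did not overlap in Klf2, and their ranges overlapped in Cxcr6, where each library differed in the same direction. Both calls were lost in the fit without the library block (adjusted p 0.9999 for Cxcr6 and 0.188 for Klf2). Among the genes chosen for the size of the difference, Ttc7 had a log2 difference of 1.91 (adjusted p 0.04997), Dusp6 of 1.21 (adjusted p 0.00518), P2rx7 of 0.92 (adjusted p 0.0304) and Gm12840 of 0.67 (adjusted p 0.0214). Each of these 4 lost its call when 1 library was left out. Without liver replicate 1 this held for Ttc7 (1.44, adjusted p 0.954), Dusp6 (0.59, adjusted p 0.954) and Gm12840 (0.90, adjusted p 0.142), and without liver replicate 2 for Ttc7 (2.42, adjusted p 0.422), P2rx7 (0.52, adjusted p 0.996) and Gm12840 (0.51, adjusted p 0.977). Gm12840 was also not called without spleen replicate 1 (adjusted p 0.576) or 2 (0.334), nor Ttc7 without lymph node replicate 1 (0.0580) or 2 (0.0601).

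Markers of other lymphocytes moved with these comparisons. Cd8a stood at 0.827 and 0 CPM in the members, at 16.9 and 0 CPM in Gzmb-positive cells and at 18.6 and 15.8 CPM in Gzma-positive cells, and was called lower in the members both times. Against Gzmb-positive cells the call rests on replicate 1 alone, since both classes of replicate 2 were at 0. The Gzma-positive cells held 404100 and 279347 UMIs in all, so their Cd8a levels rest on few UMIs. Of the 5 NK cell markers, 2 could be tested in each comparison and 1, Ncr1, was lower in the members, while Eomes was at 0 in all 3 classes. The platelet and erythroid list summed to 5924 CPM in the Gzma-positive cells of replicate 2, against 29.8 CPM in those of replicate 1. The part of CD8 T cells, NK cells or erythroid RNA in these differences was not tested.

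**Figure D3:**
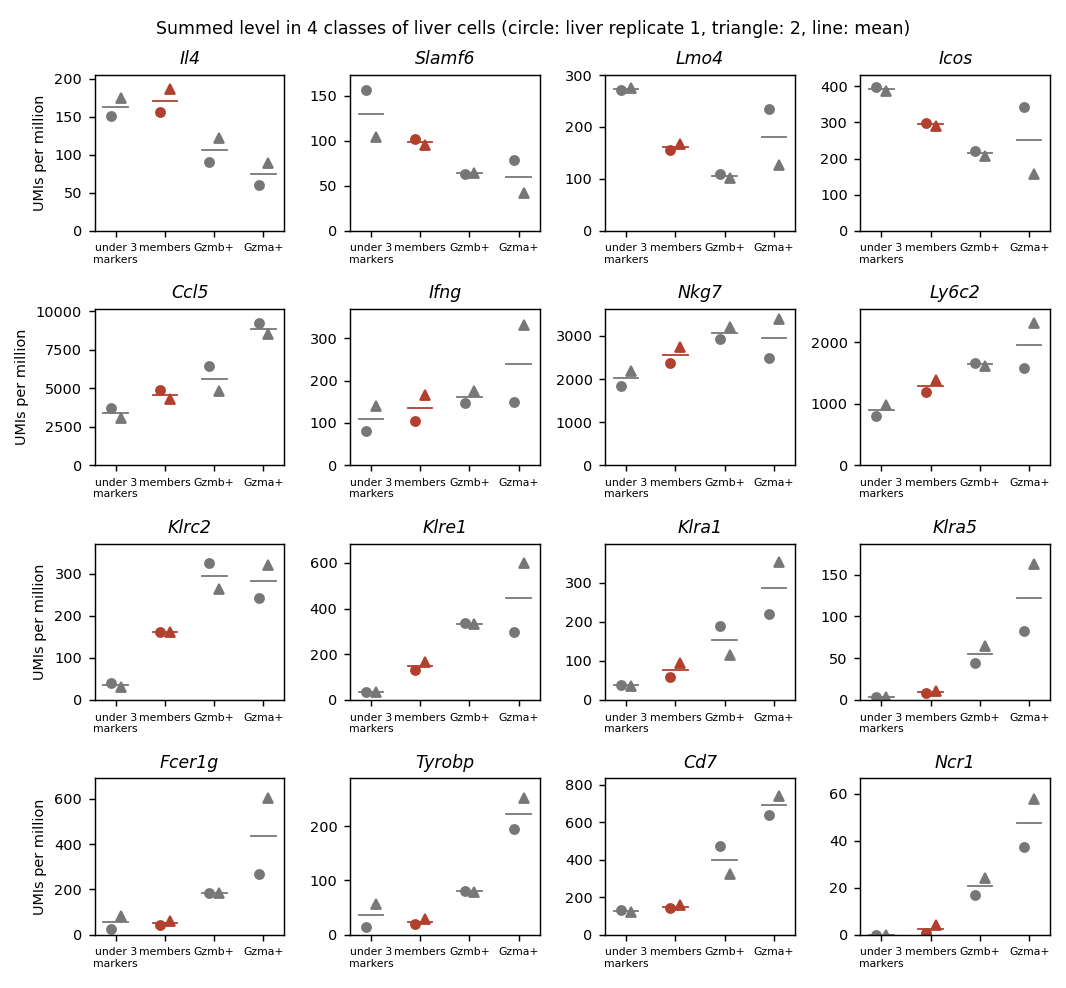
Summed level (y axis, UMIs per 1000000, from 0) of 16 genes in 4 classes of liver cells, with 1 point per library and the mean as a line. Il4 is higher in the members (156 and 186) than in Gzmb-positive (90.3 and 121) and Gzma-positive cells (59.6 and 89.3), while Klre1, Fcer1g, Tyrobp and Cd7 run the other way.

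Against all remaining cells of the same library, 195 of 10323 genes were higher (1.89%) and 417 were lower (4.04%) in the members, a share higher of 31.9% that was 7.69% of 169 calls with DESeq2 and its size factors, 0.939% of 213 without the library block and 8 of 16 calls with thinned cells. The rule excludes cells with Top2a, and the lower genes were led by genes of cell division. Cell cycle genes outside the rule were lower for 18 of 18 tested (median log2 difference -2.14, beside 0.0094 over all genes). Mki67, the proliferation marker, stood at 12.4 and 9.96 CPM in the members against 73.1 and 71.2 CPM in the remaining cells (log2 difference -2.65). The other lower genes chosen for size were Hist1h2ap (-5.09), Cenpf (-3.78), Nusap1 (-3.67), 2810417H13Rik (-3.43), Prc1 (-3.41), Ube2c (-2.99), Rrm2 (-2.87), Hist1h2ae (-2.79) and Cdca3 (-2.65). Since the rule fixed this contrast, the values are descriptive.

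Without the mixed class, 18 of 9971 genes were higher (0.181%) and 59 lower (0.592%), and 54 of these 77 genes were also called against all remaining cells. This comparison was added after the data had been seen. Cell cycle genes were no longer called in either direction, with a median of 0.12. Il4 was higher by 0.37 on the log2 scale (SE 0.072, adjusted p 0.000125), at 156 and 186 CPM in the members against 119 and 148 CPM. Bcl2, which encodes an inhibitor of apoptosis, was higher by 0.20 (SE 0.035, adjusted p 1.02e-05) and Cxcr6 by 0.12 (SE 0.028, adjusted p 0.00388).

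Of 26 tested lineage and maturation regulators, 4 were lower without the mixed class (Gata3, Id3, Lmo4 and Tcf7) and 1 was higher (Id2). Of 13 tested genes of immature and recently emigrated cells, 3 were lower (Ccr7, Klf2 and Tcf7) and 0 higher (median -0.12). Id3, a repressor of E proteins, differed by -1.15 (SE 0.22, adjusted p 0.00016), Klf2 by -0.50 (SE 0.072, adjusted p 3.29e-09), Tcf7, a regulator of early T cell states, by -0.43 (SE 0.11, adjusted p 0.016) and Ccr7, a lymph node homing receptor, by -1.13 (SE 0.31, adjusted p 0.0353). The remaining cells here still included the Gzmb-positive and Gzma-positive cells, which held more Fcer1g and Tyrobp than the members. Lower too were Fcer1g (-1.41) and Tyrobp (-1.52), which is no result separate from those comparisons, and Lmo4 (-0.33). Markers of other cells fell with them: both tested B cell markers, Cd79a and Cd79b, and 2 of 3 tested myeloid markers, Lyz2 and Clec4f, were lower in the members, and the myeloid list summed to 3.59 and 8.90 CPM in the members against 15.2 and 46.1 CPM in all remaining cells. Their part in the differences was not tested.

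In the comparison with all remaining cells, Bcl2 stood at 905 and 590 CPM in the members against 673 and 441 CPM (log2 difference 0.44, SE 0.038, adjusted p 4.85e-29), but was not called without the library block (adjusted p 0.569). Socs2, a feedback inhibitor of cytokine signalling, stood at 292 and 272 CPM against 233 and 198 CPM (0.40, SE 0.055, adjusted p 1.81e-11), but was not called with DESeq2, among cells of 2000 to 4000 UMIs or without the mixed class (adjusted p up to 0.16). Id2, which opposes E proteins, stood at 4340 and 4203 CPM against 3872 and 3802 CPM (0.17, SE 0.025, adjusted p 3.06e-10), but was not called with thinned cells (0.074, adjusted p 0.935), among cells of 2000 to 4000 UMIs (0.077, adjusted p 1.0), with separate sets of UMIs (0.098, adjusted p 0.166) or without the block (0.17, adjusted p 1.0). Il4 stood at 109 and 136 CPM in the remaining cells (0.50, SE 0.069, adjusted p 2.55e-11), and turned to -0.21 in thinned cells. Fcer1g stood at 83.0 and 121 CPM in the remaining cells (-0.999, SE 0.098, adjusted p 3.35e-22), and turned to 0.58 in thinned cells and to 0.14 when rule and sums were read from separate sets of UMIs.

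The highest differences among the genes chosen by size were those of Csf2, which encodes GM-CSF (0.76, adjusted p 0.000342), 4930481A15Rik (0.61), Hilpda (0.60), Hbegf (0.58), Tmem214 (0.58), Polr3d (0.57), Alkbh2 (0.56), Nkiras2 (0.54), Ecsit (0.50) and Il4. Csf2 stood at 22.1 and 42.7 CPM against 18.4 and 19.4 CPM, and was not called without liver replicate 2 (0.30, adjusted p 0.794). With thinned cells the difference of Hbegf turned to -0.68 and that of Il4 to -0.21. Without the mixed class, Il4 and Tmem214 (0.64, adjusted p 0.0182) alone of the 10 were called. Of the lists, NK receptors had 1 of 17 higher against all remaining cells (Klrc2) and 3 lower (Klra1, Klra5 and Ncr1, median -0.26). This stood beside 1.89% of all genes higher and 4.04% lower. Without the mixed class 0 of the 17 were higher and 6 lower (Klra1, Klra5, Klra6, Klra7, Klre1 and Ncr1, median -0.27). Klrc2 turned to -0.13 with at least 2 markers (adjusted p 0.355). Against all remaining cells the adaptors had 1 of 6 higher (Hcst) and 2 lower (Fcer1g and Tyrobp, median 0.034). Homing, egress and residency had 3 of 23 higher (Ccr2, Cxcr6 and Ly6c2) and 5 lower (Ccr7, Cxcr4, Itga4, Itgae and Klf2, median 0.068). Without the mixed class 0 of the 6 and 1 of the 23 were higher, and 2 and 3 were lower. Of the 10 genes chosen by size, Il4 alone was called in each fit that left out 1 library, and the lost calls had adjusted p between 0.0503 and 0.805. Without liver replicate 1, 305 genes were called in place of 612, and without liver replicate 2, 371.

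The same rule was then applied to spleen and lymph node, which kept 883 cells of spleen replicate 1 and 720 of replicate 2, and 225 cells of lymph node replicate 1 and 194 of replicate 2. Between liver and spleen cells that met the rule, 559 of 8026 genes were higher in liver (6.96%) and 616 were lower (7.68%). Between liver and lymph node, 336 were higher (4.19%) and 563 lower (7.01%), a share higher of 37.4% that was 25.5% of 542 calls with DESeq2 and its size factors. Both comparisons share the liver libraries. The cells differed in depth, with a median of 3722 and 2914 UMIs in liver, 1629 and 1452.5 for spleen, and 1404 and 1176.5 for lymph node, and a gene had to be detected at those depths to be tested. Fewer cells with an RNA and less RNA per cell cannot be told apart in these sums.

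Bcl2 (chromosome 1, 106538178 to 106714274) encodes an inhibitor of apoptosis. It stood at 905 and 590 CPM in liver, 119 and 139 CPM in spleen and 125 and 159 CPM in lymph node, so that no liver value came near another organ. The log2 difference was 2.47 from spleen (SE 0.16, adjusted p 2.93e-16) and 2.32 from lymph node (SE 0.20, adjusted p 2.02e-12).

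Of 10 tested genes of cytokine feedback, 5 were higher in liver than in spleen and 0 lower (median log2 difference 0.72, beside 0.015 over all genes), namely Cish, Pim1, Socs1, Socs2 and Socs3. Socs2 (chromosome 10, 95385362 to 95417180) stood at 292 and 272 CPM in liver, 74.1 and 80.6 CPM in spleen and 122 and 117 CPM in lymph node (log2 difference 1.81 from spleen, SE 0.15, adjusted p 1.05e-14, and 1.15 from lymph node, SE 0.20, adjusted p 1.11e-05). Cish, a target of STAT5, stood at 96.0 and 76.1 CPM in liver, 34.5 and 26.5 CPM in spleen and 25.8 and 37.4 CPM in lymph node (1.42 from spleen, SE 0.21, adjusted p 9.18e-07). Pim1, a kinase induced by cytokines, stood at 293 and 301 CPM in liver and 166 and 161 CPM in spleen (0.79, SE 0.14, adjusted p 1.86e-05), but at 413 and 388 CPM in lymph node. Against lymph node 2 genes of the list, Cish and Socs2, were higher and 2, Dusp5 and Pim1, were lower. The difference of Socs1 from spleen was 0.65 (adjusted p 0.00332), with an adjusted p of 0.0617 without spleen replicate 2, and that of Socs3 was 1.34 (adjusted p 0.00421), with an adjusted p of 0.110 without spleen replicate 1. Cish had an adjusted p of 0.130 against lymph node without lymph node replicate 1.

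Interferon-induced genes were higher in liver than in spleen for 6 of 19 tested and lower for 0 (median 0.28), and against lymph node 3 were higher and 1, Ifit3, was lower (median 0.22). Ifi27l2a stood at 1898 and 2064 CPM in liver, 1210 and 1212 CPM in spleen and 1265 and 1181 CPM in lymph node (0.65 from spleen, SE 0.13, adjusted p 0.000219). Ly6a, which encodes Sca-1, stood at 1053 and 1328 CPM in liver and 638 and 630 CPM in spleen (0.85, SE 0.13, adjusted p 2.48e-06). Among cells of 2000 to 4000 UMIs, 1 of 13 such genes was called higher, with a median of 0.015.

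The NK receptor genes called against spleen were lower in liver. Of 10 tested against spleen, 5 were lower and 0 higher (Cd96, Klra1, Klra3, Klra7 and Klra9, median -0.46). Klra1, which encodes Ly49A, stood at 59.3 and 93.2 CPM in liver, 152 and 173 CPM in spleen and 177 and 369 CPM in lymph node (-1.16 from spleen, SE 0.30, adjusted p 0.0398). Klra3 stood at 20.1 and 31.0 CPM in liver, 64.6 and 107 CPM in spleen and 118 and 98.1 CPM in lymph node (-1.80 from spleen, SE 0.23, adjusted p 3.25e-07). Klra9 differed from spleen by -1.76 (SE 0.24, adjusted p 1.42e-06). With thinned cells Klra3 (adjusted p 0.0609) and Klra9 (adjusted p 0.196) were not called. The rule asked for the same number of markers at unequal depth, and many of these markers encode NK receptors. Among cells that met it, Klrd1 stood at 463 and 579 CPM in liver and 822 and 962 CPM in spleen. Klrk1 stood at 595 and 631 CPM in liver and 781 and 927 CPM in spleen. Il2rb ran the other way, at 836 and 892 against 503 and 411 CPM. The part of the rule in the NK receptor differences was not tested, and they are descriptive. The Klra genes are near-identical in sequence, and how reads were shared among them is not given in the sources used here.

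Of 12 tested cytokine and chemokine genes, 3 were higher in liver than in spleen (Ifng, Tgfb1 and Tnfsf14) and 3 lower (Ccl5, Cd40lg and Ltb), and 2 were higher (Ccl5 and Tnfsf14) and 2 lower (Ifng and Ltb) than in lymph node. Ccl5 stood at 4886 and 4287 CPM in liver, 7908 and 7144 CPM in spleen and 2629 and 2806 CPM in lymph node, a log2 difference of -0.78 from spleen (SE 0.13, adjusted p 1.04e-05) and 0.67 from lymph node (SE 0.14, adjusted p 0.000215). Ifng stood at 105 and 166 CPM in liver, 95.6 and 74.8 CPM in spleen and 280 and 313 CPM in lymph node, a log2 difference of 0.59 from spleen (adjusted p 0.0355) and -1.21 from lymph node (adjusted p 9.26e-05). The call for Ifng against spleen was lost without liver replicate 2 (0.21, adjusted p 0.476) and without spleen replicate 2 (0.47, adjusted p 0.187). Among cells of 2000 to 4000 UMIs the difference of Ccl5 from spleen was 0.098, and that of Ifng from lymph node was -0.38 (adjusted p 0.7). The difference of Ccl5 from lymph node ran from 0.33 to 1.70 over 16 alternatives. It was not called with at least 4 markers or with separate sets of UMIs. With separate sets of UMIs for rule and sums, the difference of Ifng from lymph node was -0.076 (adjusted p 0.966).

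Of 23 tested genes of homing, egress and residency, 5 were higher in liver than in spleen (Cd44, Itga1, Itgal, Ly6c2 and P2rx7) and 3 lower (Cxcr6, Klf2 and Rgs1), with a median of 0.089, beside 6.96% of all genes higher and 7.68% lower. Against lymph node 6 of the 23 were higher, Ly6c2 and P2rx7 among them, and 5 lower (Cd69, Cxcr4, Cxcr6, Itgae and Rgs1), with a median of 0.16. Cxcr6 stood at 1976 and 2348 CPM in lymph node, a log2 difference of -0.53 (SE 0.14, adjusted p 0.00775), and Rgs1, a regulator of G protein signalling, differed by -0.77 (SE 0.16, adjusted p 0.000442). Cxcr6 stood at 1368 and 1801 CPM in liver and at 2281 and 2495 CPM in spleen (-0.66, SE 0.14, adjusted p 0.000451), and among cells of 2000 to 4000 UMIs its difference was -0.048. Klf2 was at 120 and 126 CPM in liver and 262 and 233 CPM in spleen (-1.07, SE 0.17, adjusted p 2.68e-05). Ly6c2, a surface protein of effector and memory T cells, was higher in liver at 1194 and 1381 CPM against 464 and 523 CPM (1.32, SE 0.13, adjusted p 8.66e-12). P2rx7, a receptor for extracellular ATP, followed an order of liver, spleen and lymph node with no overlap, at 129 and 138, 83.6 and 63.3, and 7.37 and 9.34 CPM. Its log2 difference was 0.78 from spleen (SE 0.17, adjusted p 0.000583) and 3.92 from lymph node (SE 0.44, adjusted p 9.13e-11). The lymph node cells held 366707 and 273824 UMIs in all, so their P2rx7 levels rest on few UMIs and the 3.92 is uncertain in size. Outside that list, Plac8 showed the same order, at 698 and 770, 314 and 276, and 70.1 and 46.7 CPM (3.54 from lymph node, SE 0.22, adjusted p 1.72e-21). Il7r, the IL-7 receptor α chain, was lower in liver than in spleen (-1.02, SE 0.13, adjusted p 8.43e-09), and so was Lmo4 (-1.02, SE 0.13, adjusted p 2.39e-08).

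The remaining liver genes chosen by size against spleen were Hspa1b (5.30), AY036118 (3.22), Tmem176b (2.40), Mdfic (2.31), Gm42418 (2.26), Mmp9 (1.86), Tmem176a (1.80) and Txnip (1.71). Tmem176a and Tmem176b, neighbours on chromosome 6 that overlap at one end, stood at 92.9 and 122 CPM and at 129 and 144 CPM in liver, against 36.2 and 20.7 CPM and 24.1 and 25.3 CPM in spleen. Txnip, a regulator of glucose uptake and redox state, stood at 330 and 216 CPM in liver and 78.4 and 81.7 CPM in spleen. Hspa1b, a heat shock gene, stood at 42.2 and 45.5 CPM in liver, 1.72 and 0 CPM in spleen and 7.37 and 23.3 CPM in lymph node. The spleen value rests on 2 UMIs in replicate 1 and none in replicate 2, so the fitted difference depends on the prior count and is no bound. AY036118 and Gm42418 overlap on chromosome 17 (39847113 to 39848035 and 39846958 to 39848788) and are annotated on opposite strands of the same stretch, where reads cannot be told apart unless strand was used in counting. They stood at 220 and 167 CPM and at 419 and 300 CPM in liver against 18.1 and 21.9 CPM and 78.4 and 63.3 CPM in spleen.

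The genes lower in liver chosen by size against spleen were Klra3, Klra9, Dtl (-1.60), Krt10 (-1.55), Spry2 (-1.50), Fam69a (-1.46), Xrcc4 (-1.41), Ccdc82 (-1.40), Cirbp (-1.37) and Eif3j2 (-1.37). Cirbp, which encodes a cold-inducible RNA-binding protein, was the most abundant of these 10, with a mean of 149 ± 9.77 CPM in liver and 369 ± 29.9 CPM in spleen (SD, n = 2, adjusted p 2.93e-12).

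All 19 of 19 tested immediate early genes were lower in liver than in lymph node (median log2 difference -2.24), and against spleen 7 were lower and 1 higher (median -0.55). Fos stood at 12.7 and 9.96 CPM in liver, 18.1 and 13.8 CPM in spleen and 402 and 346 CPM in lymph node (-5.11 from lymph node, SE 0.22, adjusted p 1.05e-30). Dusp1 stood at 74.7 and 58.7 CPM in liver, 172 and 136 CPM in spleen and 1715 and 1601 CPM in lymph node (-4.72 from lymph node, SE 0.15, adjusted p 3.13e-37, and -1.28 from spleen, SE 0.16, adjusted p 5.64e-09). Nr4a1, induced by T cell receptor signals, stood at 6.07 and 13.5 CPM in liver against 155 and 88.7 CPM in lymph node (-3.79, SE 0.35, adjusted p 7.32e-13). For Fos the spleen values lay near those of liver, and lymph node stood apart. Other values moved with this comparison. Of 11 tested iNKT2 genes 6 were lower in liver than in lymph node and 2 higher, and of 10 tested iNKT17 genes 5 were lower and 1 higher. Of 17 tested cell cycle genes outside the rule 6 were lower and 0 higher (median -0.715). The median share of mitochondrial UMIs was 2.73% and 2.78% in the liver cells and 3.86% and 4.34% in the lymph node cells, beside 3.82% and 4.34% in the spleen cells. Their part in the difference was not tested.

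Further genes lower in liver than in lymph node by size were Nrgn (-6.82), Gm17056 (-6.68) and Cdkn1a (-4.90), which rest on 1 to 11 UMIs in each liver library, and higher ones were P2rx7, F2rl2 (3.57), Plac8, AY036118 (3.00) and 1810011H11Rik (2.92). F2rl2 stood at 3.69 and 9.34 CPM in lymph node, which again rests on few UMIs. Its difference ran from 2.37 to 8.31 under the alternatives. Icos, at 300 and 290 CPM against 465 and 523 CPM, was lower in liver (-0.82, SE 0.15, adjusted p 4.21e-05), as was Tnfaip3, a brake on NF-kB signalling (-2.91, SE 0.23, adjusted p 6.00e-17). In place of 899 genes against lymph node, 463 were called without lymph node replicate 2, of which 421 were among the 899, and 524 without lymph node replicate 1, of which 442 were. Between liver and spleen, 446 genes were called without spleen replicate 2, 721 without spleen replicate 1 and 677 without liver replicate 1, in place of 1175.

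**Figure D4:**
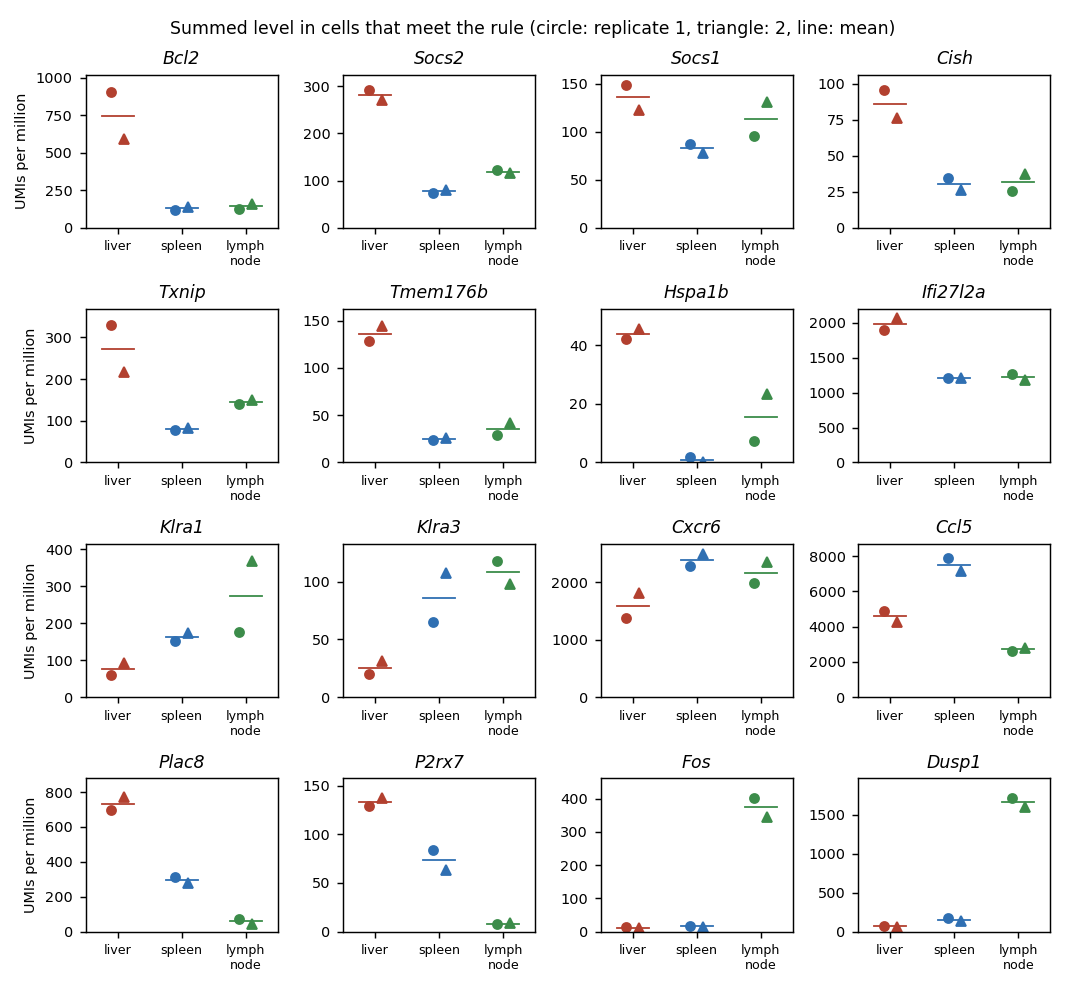
Summed level (y axis, UMIs per 1000000, from 0) of 16 genes in cells that met the rule, by organ, with 1 point per library and the mean as a line. Bcl2 and Socs2 stand apart in liver (905 and 590, 292 and 272), Klra1 and Klra3 are lowest in liver, and Fos and Dusp1 stand apart in lymph node (402 and 346, 1715 and 1601).

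Whether the contrast between these cells and the remaining cells was particular to liver was tested as the difference between the liver and the spleen contrast. It was higher in liver for 62 of 10323 genes (0.601%) and lower for 96 (0.93%), a share higher of 39.2% that was 21.7% of 23 calls with DESeq2 and 60.2% of 241 with ribosomal and haemoglobin genes kept. NK receptors were among the lower genes for 8 of 17 tested and among the higher for 0 (median -1.76, beside 0.0062 over all genes). The rule itself selects on NK receptor genes, and the remaining cells differed in kind. Cells without the 5 excluded genes and with under 3 markers were 1672 of 1846 and 1755 of 1935 remaining cells in spleen. In liver they were 643 of 1372 and 735 of 1513. The part of the rule in the NK receptor values was not tested, and these values are descriptive. In spleen, Klrc2 was higher in the cells that met the rule than in the rest by 2.24 and 2.75 on the log2 scale, and in liver by 0.22 and 0.50. The difference between the organs was -2.12 (SE 0.14, adjusted p 2.47e-46).

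For Klre1 the contrast was 2.01 and 2.45 in spleen and -0.098 and 0.11 in liver, a difference of -2.22 (SE 0.16, adjusted p 3.90e-40). For Fcer1g it was 1.44 and 1.55 in spleen and -0.96 and -1.05 in liver, and for Tyrobp 1.09 and 0.88 in spleen and -1.32 and -1.04 in liver. At the depth of the data both adaptors had opposite signs in the 2 organs, with differences of -2.50 (SE 0.19, adjusted p 3.96e-36) and -2.17 (SE 0.35, adjusted p 2.41e-07). The negative sign in liver was lost with thinned cells (0.58 for Fcer1g and 0.18 for Tyrobp) and with separate sets of UMIs (0.14 and 0.0045). The remaining cells of liver held 734 Gzmb-positive and 186 Gzma-positive cells, and those of spleen 14 and 8 Gzmb-positive and 20 and 19 Gzma-positive cells. With thinned cells the difference between the organs was -0.71 for Fcer1g (adjusted p 0.811) and -0.95 for Tyrobp (adjusted p 1.0), and Tyrobp was also not called among cells of 2000 to 4000 UMIs (-2.73, adjusted p 0.284) or with separate sets of UMIs (-0.82, adjusted p 1.0).

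Il4 was higher in these cells than in the rest by 0.52 and 0.46 in liver and by -0.076 and -0.10 in spleen, a difference of 0.57 (SE 0.12, adjusted p 0.000241). In thinned cells this difference was -0.035. For Slamf6 the contrast was -0.19 and 0.046 in liver and -1.12 and -0.50 in spleen, a difference of 0.75 (adjusted p 3.54e-05). For Lmo4 it was below 0 in both organs, at -0.46 and -0.38 in liver and -1.11 and -0.89 in spleen, a difference of 0.59 (SE 0.088, adjusted p 1.05e-08). Cxcl10, an interferon-induced chemokine, differed by -2.13 (SE 0.38, adjusted p 6.17e-06). Without spleen replicate 1 neither Slamf6 (0.44, adjusted p 0.541) nor Cxcl10 (-1.64, adjusted p 0.122) was called. Cxcl10 lost its call in 5 of 17 alternatives, and its difference ran from -2.81 to -0.021 over the 17. The other losses were with at least 2 markers, at least 4 markers, thinned cells and cells of 2000 to 4000 UMIs. The other genes chosen by size were Cdk6 (1.03), Sh3bp5 (0.89), Mbd2 (0.84) and Mrpl9 (0.76), and none of these 4 was called without liver replicate 1 or without spleen replicate 1, with adjusted p between 0.0990 and 0.909. Cdk6 lost its call in 15 of 17 alternatives, also without liver replicate 2 (adjusted p 0.187), lymph node replicate 1 (0.0750) or lymph node replicate 2 (0.0613), and Sh3bp5 (0.0929), Mbd2 (0.302) and Mrpl9 (0.265) were also not called without spleen replicate 2. The count of 158 genes fell to 69 without spleen replicate 1, 83 without spleen replicate 2, 84 without liver replicate 1 and 96 without liver replicate 2.

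**Figure D5:**
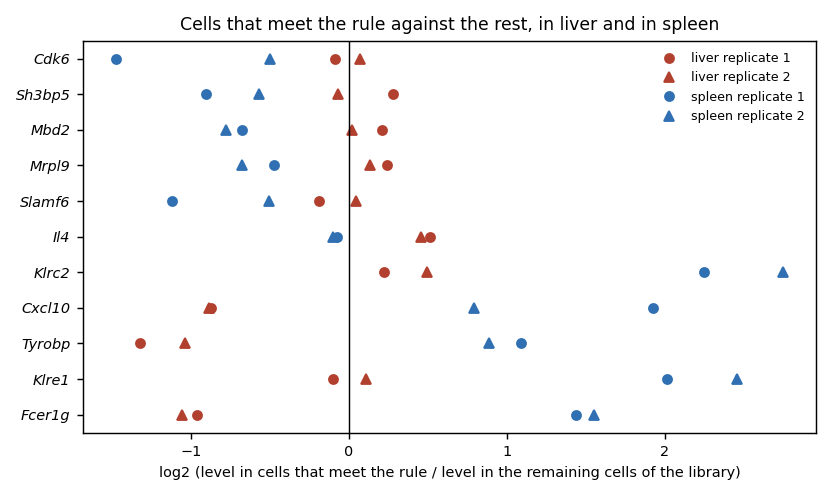
Log2 ratio of the level in cells that met the rule to the level in the remaining cells of the library (x axis), for 11 genes, with 1 point per library. At the depth of the data Fcer1g and Tyrobp are below 0 in both liver libraries and above 0 in both spleen libraries, and Il4 is at 0.52 and 0.46 in liver and -0.076 and -0.10 in spleen.

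Members with many markers were also set beside members with few. For this, all filtered liver cells were thinned to 2000 UMIs and shallower cells left out, which kept 2464 and 2342 cells. The rule was read again at that depth, and 973 and 960 cells met it. Cells whose granzyme UMIs were lost on thinning could be among them. Of these cells, called members here, the 233 and 277 that held 5 or more markers were compared with the 440 and 378 that held 3. Of 5842 genes, 10 were higher (0.171%) and 3 were lower (0.0514%). The split was made on markers of the rule, many of which encode NK receptors. The values therefore describe the split and are no test of variation among the members. NK receptors outside the rule were higher for 4 of 10 tested (Klra1, Klra9, Klrc2 and Klre1) and lower for 0 (median 1.38). Klrc2 stood at 471 and 391 CPM in marker-rich members and 131 and 114 CPM in marker-poor ones (1.81, SE 0.15, adjusted p 2.27e-30), and was called under all 7 alternatives.

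Klre1 stood at 342 and 428 CPM against 102 and 108 CPM (1.87, SE 0.16, adjusted p 1.71e-28), and Fcer1g at 136 and 148 CPM against 27.5 and 43.0 CPM (2.00, SE 0.26, adjusted p 7.29e-11). Klra9 differed by 2.62 (adjusted p 1.11e-05) and Klra1 by 1.44 (adjusted p 4.08e-07). Ccl5 stood at 6622 and 5664 CPM against 5146 and 4319 CPM (0.37, SE 0.034, adjusted p 4.39e-24), Ly6c2 at 1462 and 1630 CPM against 1151 and 1146 CPM (0.43, SE 0.060, adjusted p 2.32e-09) and Ifng at 152 and 238 CPM against 92.9 and 121 CPM (0.86, SE 0.19, adjusted p 0.00457). Marker-rich members were higher than marker-poor ones in both libraries for each of these genes. Of 7 alternatives, Ifng lost its call in 4, Ccl5 and Ly6c2 in 3, Fcer1g and Klra1 in 2 and Klre1 in 1, and Klra9 lost it in 2 of 6. Cct8 (-0.61) and Ybx1 (-0.40) were lower and turned positive when markers and sums were read from separate sets of UMIs, where 2 genes were called in all and 1 of the 13 kept its call.

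Cell-to-cell spread was described by the Fano factor, the variance of UMIs over their mean, which is 1 when counts vary by sampling alone. Over 2188 genes with a mean of at least 0.1 UMI in thinned members, the median was 1.01 and 1.02. The 10 genes with the highest value, taken as the lower of the 2 libraries, were Actb (11.7 and 13.6), Malat1 (8.70 and 9.17), Ccl5 (5.89 and 7.37), Ly6c2 (3.05 and 3.62), Gm12840 (2.68 and 3.12), Ifi27l2a (2.67 and 3.40), Ifng (2.44 and 6.33), Nfkbia (2.33 and 2.38), Ifit1 (2.36 and 2.26) and Isg15 (2.20 and 2.41).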

How the data were processed

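Per the labels, 6 libraries of sorted iNKT cells were made with 10x Genomics Chromium 3′ v2 chemistry. According to the submitters' processing notes and the methods, the authors used Cell Ranger 3.1.0 with the mm10 genome to align reads, collapse molecular identifiers and select barcodes, and Seurat for analysis. The deposited matrices hold raw counts of UMIs per gene and barcode, and the other deposited lists hold barcodes and gene identifiers. The version of the gene annotation is not given in the sources used here, and locations were matched by Ensembl identifier in GENCODE vM21 on GRCm38, also called mm10, for 27722 (99.0%) of 27998 genes.

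The members and the gene lists were chosen with earlier results of these data known. Groups came from the labels. Barcodes were filtered at 300 to 4000 genes and 15% mitochondrial UMIs, and no doublet caller was run. As an alternative the 2% of barcodes with the most UMIs were left out. Ribosomal and haemoglobin genes (107 genes with 22.7% to 33.8% of the UMIs) and the 13 genes of the rule were left out of the tests. UMIs were summed per library and class over at least 10 cells and tested in R 4.3.3 with the robust quasi-likelihood F test of edgeR 4.0.16, after filterByExpr (minimum count 10) and TMM, and p was adjusted by Benjamini-Hochberg. All organs entered each fit, with library as a block within classes, except that organs were compared with organ as the only term and members with 5 or more markers within liver. Standard errors are the log2 fold over the square root of F. Genes named for size are the highest and lowest log2 differences among called genes with a mean of at least 20 CPM and the same sign in both libraries (10 a direction for remaining cells and spleen, 5 elsewhere), without rule genes, Xist, Tsix and Y-linked genes. Other genes named come from the lists and were picked for print after their values were seen. The scripts were tested on simulated data. Alternatives included DESeq2 1.42.0, thinning to 1000 UMIs, and a random split of each cell's UMIs into a set for the rule and a set for the sums.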

Additional observations from a re-analysis of the deposited data

Results flagged for a closer look

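The contrast between cells that met the rule and the remaining cells of the library was fitted in liver and in spleen in the same model, and the difference between the organs was tested. It was called for 158 genes with edgeR's quasi-likelihood test. Among the genes chosen by size, the liver contrast exceeded the spleen contrast for Cdk6 (log2 difference 1.03), Sh3bp5 (0.89), Mbd2 (0.84), Mrpl9 (0.76) and Slamf6 (0.75). It was below the spleen contrast for Fcer1g (-2.50), Klre1 (-2.22), Tyrobp (-2.17), Cxcl10 (-2.13) and Klrc2 (-2.12). The rule selects on NK receptor genes, and its part in the values of Klre1 and Klrc2 was not tested. Each organ had 2 libraries, too few to test whether a single library stood far from the others.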

How the results depend on the processing

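Of 2301 values of 146 named results under alternatives, 1892 kept direction and call, 390 lost the call and 19 changed direction, and 38 results kept both under every alternative run. Of these values, 816 came from leaving out 1 library, of which 756 kept the call, 60 lost it and 0 changed direction. Of the alternatives run, thinning to 1000 UMIs left the fewest genes called against the remaining cells, but it also changed which cells met the rule, so the part of depth alone was not tested. Where a value moved, the cause was not tested.

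Counts of called genes are given in the order remaining cells (612), Gzmb-positive cells (35), Gzma-positive cells (66), spleen (1175), lymph node (899), liver against spleen contrast (158) and marker-rich members (13). DESeq2 called 169, 12, 33, 371, 542, 23 and 2. Separate sets of UMIs for rule and sums gave 175, 13, 22, 259, 167, 18 and 2. Thinning gave 16, 7, 35, 344, 278 and 11, marker-rich members not included. Cells of 2000 to 4000 UMIs gave 35 for remaining cells, 38 for Gzma-positive cells, 452 for spleen, 183 for lymph node and 51 for the organ contrast. At least 4 markers gave 404 for remaining cells, 530 for spleen, 283 for lymph node and 72 for the organ contrast, and at least 2 markers gave 1684 for lymph node. Leaving out the 2% of barcodes with the most UMIs gave 305 for remaining cells and 21 for marker-rich members, and keeping ribosomal and haemoglobin genes gave 241 for the organ contrast. The mixed class was left out as an alternative chosen after seeing the data, and 77 genes were then called against the remaining cells. Leaving out 1 library gave 305 to 627 for remaining cells, 17 to 41 for Gzmb-positive cells, 30 to 67 for Gzma-positive cells, 446 to 1304 for spleen, 463 to 1004 for lymph node and 69 to 136 for the organ contrast. For marker-rich members this could not be run, since no residual degrees of freedom were left. The mean share of members in the liver libraries was 49.1% (SD 2.76, n = 2), and was 62.7% with at least 2 markers, 33.7% with at least 4 and 20.6% with thinned cells.

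Direction changed on thinning for Hbegf (-0.68), Il4 (-0.21), Fcer1g (0.58) and Tyrobp (0.18) against remaining cells, Iigp1 against Gzmb-positive cells (-0.49) and Il4 in the organ contrast (-0.035). With separate sets of UMIs it changed for Fcer1g (0.14) and Tyrobp (0.0045) against remaining cells, Ifng against Gzma-positive cells (0.47), and Cct8 (0.16) and Ybx1 (0.12) in marker-rich members. It changed for Klrc2 (-0.13) with at least 2 markers and for Ccl5 against spleen (0.098) among cells of 2000 to 4000 UMIs. Without the mixed class it changed for Nusap1 (0.15), 2810417H13Rik (0.54), Prc1 (0.098), Rrm2 (0.25), Hist1h2ae (0.023) and Mki67 (0.20).

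Deviations of same-numbered libraries correlated across 3282 genes at r = 0.151 for liver and spleen, 0.075 for liver and lymph node and 0.046 for spleen and lymph node, so the numbers were not taken to pair libraries of different organs. With the replicate number as a block, 1475 genes were called against spleen and 1034 against lymph node. Without the library as replicate block, 213 genes were called against remaining cells, 10 against Gzmb-positive cells, 22 against Gzma-positive cells, 8 in the organ contrast and 6 in marker-rich members.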
